A study of Mus musculus with 36 samples.

Results

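The single-strand DNA break (SSB) landscape of brain was examined in the 2 brain libraries of 24-month-old mice, among 12 SSB libraries of 6 tissues. All mice were male C57BL/6J animals without any treatment named in the labels, and the comparison groups were bone marrow after lysis of red cells, heart, liver, peripheral blood mononuclear cells (PBMCs) separated on Ficoll, and motile sperm from the epididymal tail, with 2 libraries each. Brain, heart and liver were ground whole in liquid nitrogen, so that neurons, glia and vessel cells of the brain contribute to the same library. Sperm DNA was purified with another kit than the DNA of the other 5 tissues. The breaks were located by SSiNGLe, a method that reads the exact nucleotide and strand of each break. Brain library 1 held 361454 positions and brain library 2 held 692370, against 225011 to 1041983 over all 12 libraries. RNA was not analysed here, so the tissue labels were not checked against expression markers.

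An SSB is an interruption of 1 strand of the double helix. Most SSBs arise from attack on the sugar of the backbone, from excision of damaged bases or from topoisomerase cleavage, and they are sealed by a pathway in which PARP1 detects the break, XRCC1 holds the repair enzymes together and a ligase closes the nick. Neurons do not divide and use much oxygen, and inherited defects of this pathway lead mainly to neurological disease. Neurons also carry SSBs in regulatory DNA as part of normal demethylation and repair. Whether the positions of breaks along the genome set brain apart from other tissues is the question that the comparison addresses.

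A few promoter windows with many brain positions are shown first, because they give a picture of what the positions look like on the DNA. Of 27025 windows from 250 bases before to 50 bases after an annotated start, 19433 held 0 brain positions and the highest number was 8. The 250 bases upstream of the start are printed on the strand of the gene, from RefSeq sequences of GRCm38.p6, and capitals mark bases at which an SSB was recorded on either strand in a brain library. The 3 windows were the one with 8 positions and the first 2, in genome order, of the 9 windows tied at 6.
Gm33862, chr11:3136826-3137075, plus strand: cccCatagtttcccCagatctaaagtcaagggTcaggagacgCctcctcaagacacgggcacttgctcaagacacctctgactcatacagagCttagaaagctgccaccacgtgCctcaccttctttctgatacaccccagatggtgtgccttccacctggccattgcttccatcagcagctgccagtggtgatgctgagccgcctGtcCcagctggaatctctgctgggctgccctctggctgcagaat
Hjurp, chr1:88277580-88277829, minus strand: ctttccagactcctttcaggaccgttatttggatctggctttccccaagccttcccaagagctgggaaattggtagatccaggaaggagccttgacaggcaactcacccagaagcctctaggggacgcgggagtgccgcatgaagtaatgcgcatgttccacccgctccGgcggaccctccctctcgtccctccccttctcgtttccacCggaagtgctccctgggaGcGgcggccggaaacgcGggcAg
Pcna, chr2:132253181-132253430, minus strand: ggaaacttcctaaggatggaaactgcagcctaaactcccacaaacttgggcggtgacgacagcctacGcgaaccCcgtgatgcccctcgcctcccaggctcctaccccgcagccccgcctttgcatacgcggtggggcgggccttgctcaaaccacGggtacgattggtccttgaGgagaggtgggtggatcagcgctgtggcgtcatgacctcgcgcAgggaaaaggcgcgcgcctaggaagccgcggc

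The predicted gene Gm33862 had 0 positions in brain library 1 and 8 in brain library 2, and 1 to 8 in each of the other 10 libraries. It lies in a window of chromosome 11 that was dense in breaks in every library, described below. Hjurp, a chaperone of the centromeric histone CENP-A, had 1 and 5 positions in the brain libraries and 0 to 7 in the others. Pcna, the sliding clamp of DNA replication and repair, had 1 and 5 positions in brain and 0 to 2 in the others. The windows were chosen by their brain values, so the difference of Pcna from the other tissues has no test. Nearly all capitals in the 3 sequences therefore come from brain library 2, the deeper of the pair, and brain library 1 added at most 1 position to each.

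Of 68 single values compared over the SSB libraries, 13 placed both brain libraries outside the range of all others, and 8 of these were shares of whole chromosomes. Brain had the lowest share of positions on chromosomes 7, 9, 11 and 19 and the highest on chromosomes 3, 8, 10 and 14, out of 21 chromosomes. On chromosome 9 the share was 5.07% in brain library 1 and 5.05% in brain library 2, and in the other libraries it ranged from 5.34% to 5.57% with a median of 5.38%. The 95% Wilson intervals of the brain values, which cover counting error only, ran from 4.998% to 5.14% and from 4.996% to 5.10%. By tissue, the mean on chromosome 9 was 5.06% ± 0.015 (SD, n = 2) in brain, 5.35% ± 0.017 in heart, 5.36% ± 0.028 in liver, 5.38% ± 0.003 in PBMCs, 5.44% ± 0.015 in bone marrow and 5.53% ± 0.060 in sperm. On this chromosome the difference between brain and the rest was many times the spread between libraries of a tissue, whereas heart and liver did not differ beyond their spread.

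On chromosome 19, brain had 2.49% and 2.46% of positions and the other libraries 2.51% to 2.82% (median 2.69%). The gap to the nearest tissue was small there, with means of 2.48% ± 0.018 (SD, n = 2) in brain and 2.56% ± 0.059 in liver. On chromosome 8, brain had 5.63% and 5.61% and the others 5.30% to 5.51% (median 5.43%). On chromosome 10, brain had 5.10% and 5.11% and the others 4.89% to 5.07% (median 4.995%), with means of 5.11% ± 0.005 in brain and 5.02% ± 0.057 in sperm. For chromosomes 8, 9, 10 and 19 the two-sided exact permutation test of 2 against 10 libraries gave p = 0.0152, the smallest that 66 splits can give. Chromosome 7 (5.75% and 5.69% against 5.78% to 6.19%) gave an exact permutation p = 0.0303 and chromosome 14 (4.52% and 4.50% against 4.25% to 4.48%) gave p = 0.0455 in the same exact permutation test. On chromosomes 11 and 3, bone marrow lay far from the other tissues on the opposite side to brain, and exact permutation gave p = 0.0758 and p = 0.0909. After adjustment over all 68 single values that were tested, none passed, with a smallest adjusted p = 0.206 by exact permutation. The AP libraries of the same tissue samples, which map abasic sites (sugars that have lost their base), put 5.41% and 5.36% of brain positions on chromosome 9, within the 5.29% to 5.48% of the other tissues. In the AP libraries 0 of 21 chromosomes had brain outside the range of the other tissues.

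**Figure D1:**
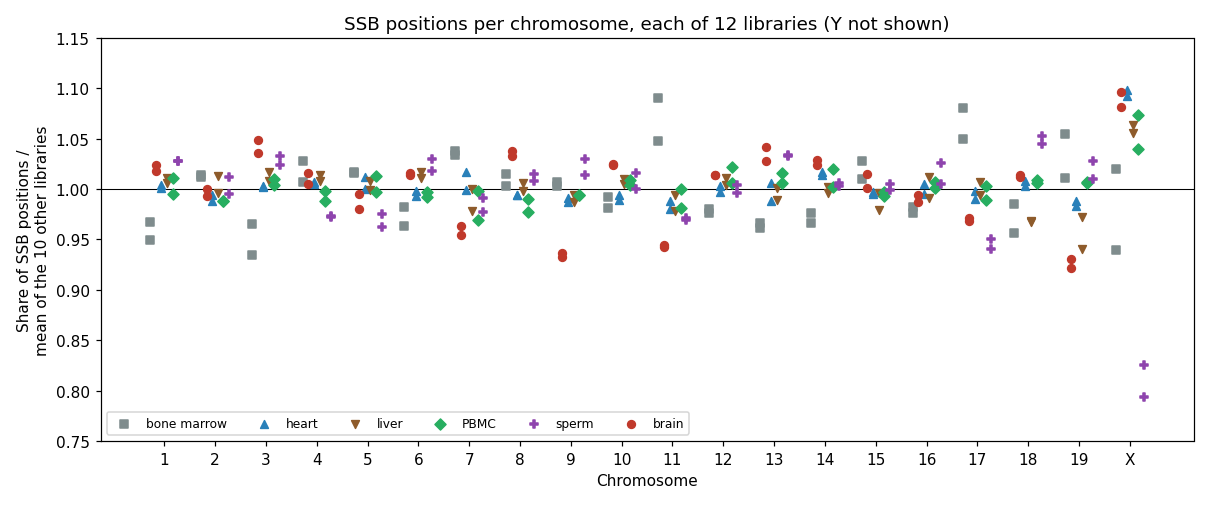
Share of SSB positions on each chromosome (1 to 19 and X) divided by the mean share of the 10 libraries that are not from brain, with 1 point per library and 1 colour per tissue. Both brain libraries lie below all others on chromosomes 7, 9, 11 and 19 and above all others on chromosomes 3, 8, 10 and 14, and on chromosome X the low points are the sperm libraries.

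Within chromosomes, positions were counted in windows of 3 sizes with edgeR's quasi-likelihood test, contrasting brain with the mean of the other 5 tissues. In windows of 100 kb, 0 of 25925 were called (0% of those tested, adjusted p under 0.05), with 1568 windows (6.05%) at an unadjusted p under 0.05. In windows of 1 Mb, a size added after the data had been seen, 7 windows were called higher and 2 lower in brain, 0.263% and 0.0753% of 2657. The 2 lower windows, named after their values were seen, were on chromosome 14 from 31000001 to 32000000, which holds Pbrm1, and on chromosome 9 from 51000001 to 52000000, which holds Arhgap20. They overlap 21 and 10 protein-coding genes. In windows of 5 Mb, also added later, 28 were called higher and 44 lower, 5.04% and 7.91% of 556. Differences in the called 5 Mb windows were small. Brain was 7.37% to 18.9% above the mean of the other libraries in the windows called higher and 6.65% to 17.5% below it in those called lower. In 11 of the 28 and 15 of the 44 both brain libraries lay outside the range of the other 10, against 41 of all 556 windows (7.37%). The called windows are part of the 556 and were called on the same libraries. Their higher share is therefore no separate support for the calls.

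The windows called lower in brain were mainly on the chromosomes with low shares, with 12 of 25 windows on chromosome 9, 8 of 25 on chromosome 11, 7 of 13 on chromosome 19 and 6 of 30 on chromosome 7. Windows called higher were spread more widely, with 5 on chromosome 3, 4 on X, 3 each on chromosomes 4, 8 and 13, and 2 or fewer on any other. All 13 windows of chromosome 19 and 23 of 25 on chromosome 9 had a ratio below 1. The median log2 ratio of the windows was -0.12 on chromosome 19, -0.10 on chromosomes 9 and 11, and 0.05 on chromosome 3. The windows called lower had a median of 49.4% of their length covered by protein-coding genes, those called higher 37.8% and all windows 39.3%. No test was made of this difference.

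The strongest window of each direction lay on chromosomes 13 and 9. Chromosome 13 from 110000001 to 115000000, which includes Arl15, Rab3c and Ndufs4, had 2637 and 2792 positions per 1000000 in brain, against 2165 to 2477 in the other libraries (median 2344). The log2 ratio was 0.21 ± 0.04 (SE, n = 2 and 10) with an adjusted p = 2.54e-06 from edgeR. Chromosome 9 from 70000001 to 75000000, with Unc13c, a synaptic vesicle priming gene, and the transcription factor gene Tcf12, had 1876 and 1982 positions per 1000000 in brain against 2091 to 2404 (median 2258), a log2 ratio of -0.22 ± 0.04 with an edgeR adjusted p = 2.54e-06. In both windows the brain libraries and the others did not overlap.

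Other windows higher in brain held Nr3c2, the mineralocorticoid receptor gene, on chromosome 8 from 75000001 to 80000000 (2296 and 2275 per 1000000 against 1853 to 2195), Grip1, which encodes a scaffold of glutamate receptors, on chromosome 10 from 115000001 to 120000000 (2645 and 2575 against 2076 to 2531), Fat4 on chromosome 3 from 35000001 to 40000000 (2133 and 2145 against 1697 to 2009) and Zfp618 on chromosome 4 from 60000001 to 65000000 (1953 and 1847 against 1554 to 1765). Other windows lower in brain held Prkca, a protein kinase C gene, and Tanc2 on chromosome 11 from 105000001 to 110000000 (2399 and 2346 against 2514 to 2970), Dmxl2 on chromosome 9 from 50000001 to 55000000 (1884 and 2035 against 2114 to 2494), Dock1 on chromosome 7 from 130000001 to 135000000 (2684 and 2610 against 2711 to 3225), and Sorcs3 on chromosome 19 from 45000001 to 50000000 (2518 and 2369 against 2508 to 2893). The brain libraries lay outside the others in all of these except the window on chromosome 19. Their edgeR log2 ratios ranged in size from 0.15 to 0.21, with SE values of about 0.04. Each 5 Mb window held many genes, and those named are among the 3 protein-coding genes that cover most of it, not always the first of the 3.

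Against each tissue in turn, which shares the brain libraries among 5 contrasts, edgeR called 242 of 556 windows of 5 Mb (43.5%) against bone marrow, 194 (34.9%) against sperm, 19 (3.42%) against heart, 13 (2.34%) against PBMCs and 12 (2.16%) against liver. Of the 72 windows called against the mean of all tissues, which was made from the same libraries, 49 were also called against bone marrow, 38 against sperm, 17 against heart, 9 against liver and 9 against PBMCs, and 0 against all 5. The 4 windows called on chromosome X, which start at 5000001, 70000001, 140000001 and 150000001, were not called when sperm was left out (0 called on X), and sperm had 1.35% ± 0.038 (SD, n = 2) of its positions on X against 1.82% ± 0.017 in brain and 1.83% ± 0.008 in heart. Without sperm, 36 windows were higher and 55 lower. The number of calls depended on the test and on depth. DESeq2 called 1 window higher, the window on chromosome 13 above, and 2 lower, those with Unc13c and with Prkca, and thinning all libraries to 225011 positions left 5 and 5. With brain library 1 left out the numbers were 8 and 17, and with brain library 2 left out 2 and 4, where the lone brain library is assumed to vary like the other tissues. In the AP libraries 0 of 556 windows were called by edgeR (0%), with 5 (0.899%) at an unadjusted p under 0.05, and the AP log2 ratio was above 0 in 18 of the 28 windows higher and 14 of the 44 lower for SSBs, against 267 of all 556 windows (48%). Whether the difference from the other tissues itself differs between SSBs and AP sites was not tested.

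**Figure D2:**
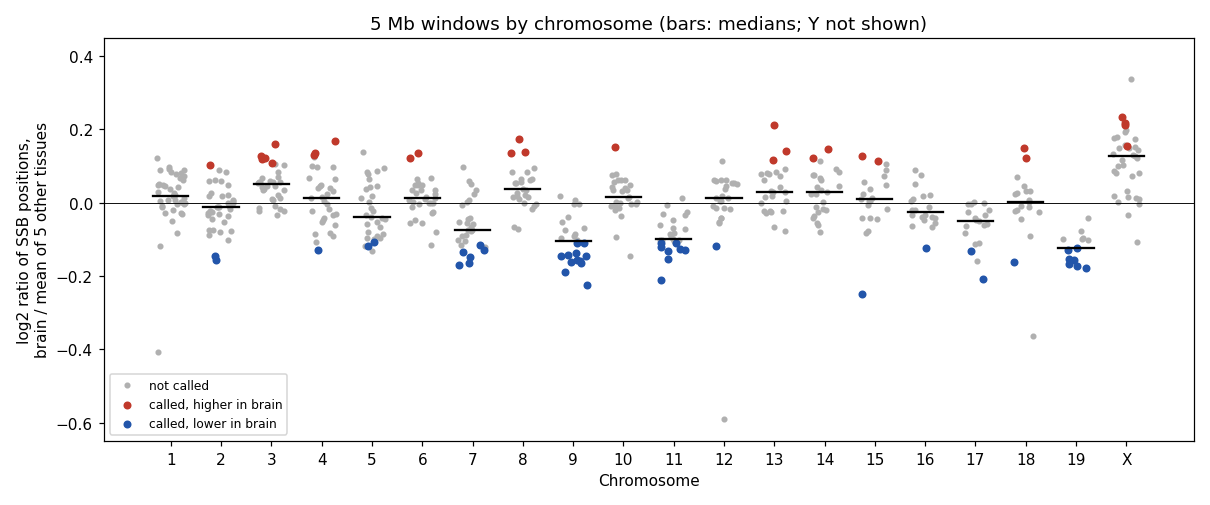
The log2 ratio of SSB positions in brain to the mean of the 5 other tissues for 5 Mb windows, by chromosome (1 to 19 and X), with windows called by edgeR in red (higher) and blue (lower) and bars at the medians. Called windows that are lower gather on chromosomes 7, 9, 11 and 19, where the whole distribution is shifted down.

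The 100 kb windows richest in brain positions were rich in every tissue. The first was on chromosome 11 from 3100001 to 3200000, over Sfi1, with 1284 and 1363 positions per 1000000 in brain and 1159 to 1467 in the other libraries. The second, on chromosome 17 from 39800001 to 39900000 and without a protein-coding gene, had 736 and 599 per 1000000 in brain and 386 to 1174 in the others. The next 3 were on chromosome 1, from 88200001 to 88300000 over the Ugt1a genes (434 and 406 against 312 to 453), from 85200001 to 85300000 (252 and 228 against 151 to 249.5) and from 85500001 to 85600000 over Sp110 (133 and 160.3 against 107 to 159). For these 5 windows edgeR gave adjusted p-values from 0.840 to 0.992. Both windows on chromosome 1 near 85 Mb hold multicopy gene families, and the assignment of reads to a copy is uncertain. Whether reads from repeated sequence add to the positions was not tested in any of the 5 windows, including the densest on chromosomes 11 and 17.

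At 100 kb, the windows of smallest p did not pass the adjusted threshold, and the assignment of reads in repeated sequence was not examined for them. The window higher in brain with the smallest p lay on chromosome 7 from 84500001 to 84600000, with 102 and 78.0 positions per 1000000 in brain against 14.4 to 76.2 (edgeR log2 ratio 0.82 ± 0.19, adjusted p = 0.387). It covers part of Fah, which encodes the last enzyme of tyrosine breakdown. Next came chromosome 8 from 20500001 to 20600000, chromosome 1 from 146500001 to 146600000 within Brinp3, chromosome 1 from 85300001 to 85400000, and chromosome 4 from 13600001 to 13700000, with log2 ratios of 0.79, 1.27, 0.63 and 1.12. The windows lower in brain were on chromosome 3 from 89100001 to 89200000 over Hcn3 and Clk2 (44.3 and 40.4 against 47.0 to 135 per 1000000, log2 ratio -0.92 ± 0.22, edgeR adjusted p = 0.387), and within or over Map2k4, Epb41, Pde4b and Cdk8, with log2 ratios of -1.18, -0.99, -0.81 and -1.02.

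In whole genes, positions were counted on either strand and expressed as LPKM-SSB, the lesions per kb of gene and per 1000000 positions of the library. The median gene had 2 positions in brain library 1 and 4 in brain library 2. With edgeR, 0 of 38486 genes were called higher or lower in brain (0%), and 1885 (4.90%) had an unadjusted p under 0.05, 1473 of them higher (3.83%) and 412 lower (1.07%). DESeq2 also called 0, with 187 genes at an unadjusted p under 0.05. The fitted ratio was above 1 in 60.2% of genes, with a median log2 ratio of 0.15 (0.10 without TMM), and the ratios of single genes and lists below are to be read against this value.

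Fah had the smallest p of all genes. On chromosome 7 from 84585159 to 84605942, it had an LPKM-SSB of 2.53 and 1.60 in the brain libraries (19 and 23 positions) and 0.204 to 1.42 in the others (median 0.669), so that the groups did not overlap, and its log2 ratio was 1.34 ± 0.31 (SE, n = 2 and 10, edgeR adjusted p = 0.637). Brinp3, a gene expressed in the nervous system, spans 407 kb on chromosome 1 and had 0.279 and 0.273 in brain against 0.129 to 0.229 in the others (edgeR log2 ratio 0.68 ± 0.17, adjusted p = 0.767). Eml1, a microtubule-associated protein gene, had 0.821 and 0.823 against 0.377 to 0.765, also without overlap. Scube1 had 1.42 and 1.16 against 0.677 to 1.23, with overlap. The pseudogene Rps7-ps2 had 2 and 6 positions in brain and 0 or 1 in the others, a small number in a sequence that resembles other copies of Rps7, and is uncertain.

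Among genes with lower values in brain, Rasgrp3 had 0.238 and 0.341 against 0.318 to 0.886 (edgeR log2 ratio -0.97 ± 0.26, adjusted p = 0.767) and Susd6 had 0.306 and 0.384 against 0.471 to 0.918. Susd6 was the single gene called between brain and heart (edgeR log2 ratio -1.38 ± 0.26, adjusted p = 0.00720, 0.0026% of genes called). Zdhhc4, Eif5a and Gm46768 had 0 positions in both brain libraries. A count of 0 allows up to 3 positions over both, equal to an LPKM-SSB of 0.223, 0.543 and 0.474, against means of 0.725 ± 0.202, 1.90 ± 1.09 and 1.37 ± 0.536 (SD, n = 10) in the other libraries. These means were 3.25-fold, 3.51-fold and 2.89-fold above the values for 3 positions, for counting error only. The genes were chosen by their small p, which this comparison ignores, so no minimum difference is shown. None of them passed the adjusted threshold. For Eif5a the brain values overlapped with the others, which reached down to 0, and the mean of PBMCs was 0.623. Leaving out each library in turn left 0 genes called.

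Between brain and single tissues, edgeR called 19 genes against bone marrow (0.0494%), all higher in brain, 1 against heart, 1 against sperm, and 0 against liver and PBMCs. The 19 genes were long, with a median of 856811 bp and 12 above 500 kb. The median was 10622.5 bp over all genes tested and 140318 bp over genes with a mean of at least 20 positions. Longer genes tend to hold more positions, and how far this favoured their being called was not tested. The first were Ptprd, a receptor tyrosine phosphatase gene of synapses, with a log2 ratio of 0.67 ± 0.12 (SE, edgeR adjusted p = 0.000251), Lrp1b with 0.69 ± 0.13 and the potassium channel gene Kcnb2 with 1.01 ± 0.20. The other 16 were Olfm3, Ctnna2, Robo1, Slc10a7, Tenm2, Dpp10, Dab1, Nr3c2, Fam155a, Macrod2, Chl1, Ctnnd2, Nrg3, Epha3, Tmtc2 and Ryr3. Dcc, the netrin receptor gene, was lower in brain than in sperm (edgeR log2 ratio -0.65 ± 0.13, adjusted p = 0.0251). Against the other 4 tissues 0 or 1 gene was called, and bone marrow had the smallest share of positions in genes over 500 kb of the 6 tissues, 6.69% ± 0.22 (SD, n = 2) against 7.46% ± 0.07 in brain.

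By gene length, brain lay within the range of the other tissues in every class. The share of positions in any gene was 61.4% in both brain libraries and 59.8% to 63.5% in the others (median 61.0%). Genes over 500 kb took 7.41% and 7.52% of brain positions against 6.54% to 8.31% in the other libraries. Genes of 100 to 500 kb took 22.8% and 22.8% against 22.2% to 22.9%, where the mean of brain (22.78%) was second to that of PBMCs (22.88%) and the other 4 tissues had means of 22.34% to 22.46%. Genes of 50 to 100 kb took 10.7% and 10.7% against 10.2% to 11.4%, those of 10 to 50 kb 16.2% and 16.1% against 14.9% to 18.3%, and those under 10 kb 4.39% and 4.33% against 3.92% to 5.07%. For genes over 500 kb the range of the other libraries was set by bone marrow at one end and sperm at the other. The exact permutation p-values of these 6 values ranged from 0.136 to 0.909. Windows of 100 kb without a protein-coding gene took 24.8% and 24.9% of positions in brain and 21.6% to 26.95% elsewhere, and windows covered over 50% by such genes took 52.1% and 52.0% against 50.5% to 54.7%.

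Strand relative to the gene was asymmetric in every SSB library, and brain was among the least asymmetric tissues. Among positions covered by genes of 1 strand only, 53.0% in brain library 1 and 53.1% in brain library 2 were on the strand of the gene, against 52.5% to 55.6% in the others (median 54.0%). The strand of the gene is the non-template strand in transcription, but the sources used here do not state whether the strand field names the broken strand or its complement, and in the second case the excess lies on the template strand. Bone marrow had 53.0% ± 0.61 (SD, n = 2), brain 53.1% ± 0.013, heart 53.7% ± 0.061, liver 54.0% ± 0.19, sperm 55.2% ± 0.49 and PBMCs 55.3% ± 0.41. Bone marrow and brain did not differ beyond their spread, nor did sperm and PBMCs. Over all 10 other libraries the difference of -1.17 percentage points was not significant (exact permutation p = 0.136). Without bone marrow it was -1.48 points and brain was below all 8 remaining libraries (exact permutation p = 0.0444, before adjustment). In genes over 500 kb the share was 51.6% and 52.0% in brain against 52.0% to 54.9%, and in genes under 10 kb 52.1% and 52.3% against 52.4% to 53.8%. In the AP libraries of brain, 50.6% and 50.3% of positions were on the strand of the gene.

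**Figure D3:**
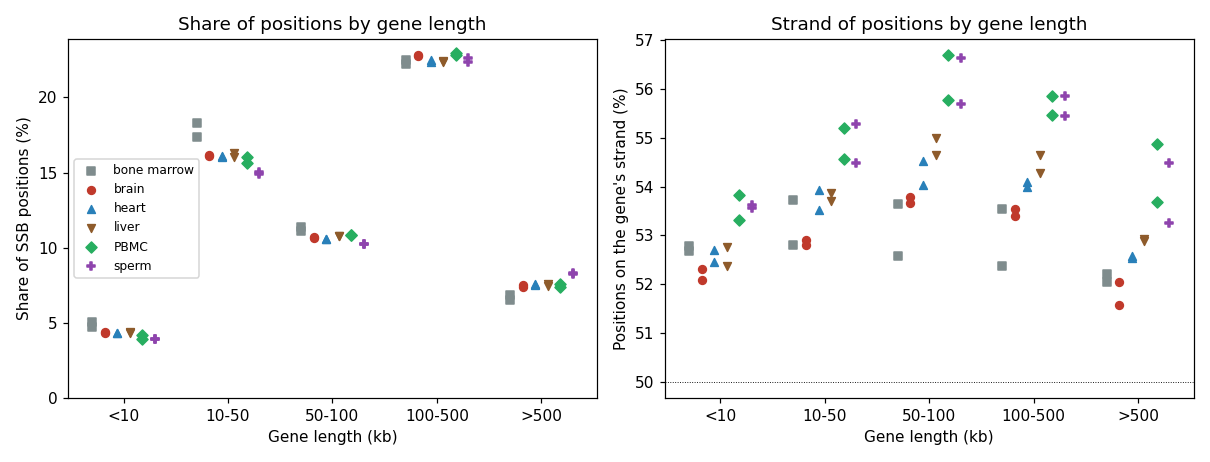
Left, the share of SSB positions in genes of each length class (kb), and right, the share of positions on the strand of the gene by length class, with 1 point per library. Brain lies between bone marrow and sperm in genes over 500 kb, and near the lower end of the strand shares, which are all above 50% (dotted line).

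Around the starts of protein-coding genes, breaks were denser than in the flanks, and brain had intermediate values. Within 1 kb of starts, the density was 2.29 and 2.17 times that at 10 to 50 kb in the brain libraries, and 1.80 to 3.11 times in the others (median 2.36). By tissue it was 2.93 ± 0.25 (SD, n = 2) in bone marrow, 2.42 ± 0.052 in heart, 2.37 ± 0.051 in liver, 2.23 ± 0.086 in brain, 1.83 ± 0.011 in sperm and 1.80 ± 0.011 in PBMCs. Brain was below liver and heart by little more than the spread of its own libraries. On the strand of the gene, the highest 200 bp bin in brain was centred 100 bp before the start, at 2.94 and 2.59 times the flanks. The bin centred 300 bp after the start was nearly as high, at 2.86 and 2.58, so no single peak stood out. On the other strand the highest bin was centred 100 bp after the start, at 2.77 and 2.66. At gene ends, the density was 1.54 and 1.51 times the flanks in brain and 1.48 to 1.61 in the others.

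**Figure D4:**
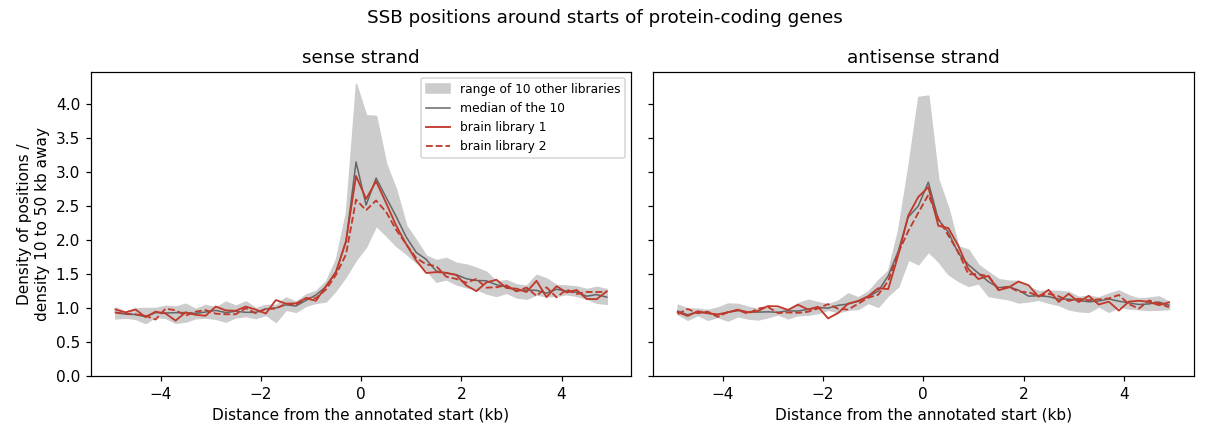
Density of SSB positions in 200 bp bins around starts of protein-coding genes, divided by the density 10 to 50 kb away, on the strand of the gene (left) and on the opposite strand (right). Brain (red lines) follows the median of the other 10 libraries (grey line) and lies mostly within their range (grey band).

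The bases at SSB positions could be read in promoter windows, where brain library 1 had 3510 positions and brain library 2 had 6127. The base is read on the strand given for the position, and if that is the complement of the broken strand, each base named here stands for its complement and the order of neighbours is turned round. Cytosine was at 42.0% and 40.8% of brain positions (95% Wilson intervals 40.4% to 43.6% and 39.6% to 42.1%), against 34.7% to 40.2% in the other libraries (median 37.7%), so that the brain values were the highest (exact permutation p = 0.0303). By tissue the means were 41.4% ± 0.83 (SD, n = 2) in brain, 39.6% ± 0.79 in liver and 39.3% ± 0.51 in heart, and 34.8% ± 0.15 in PBMCs. Divided by the share expected from the composition of the same windows and strands, cytosine was 1.45 and 1.43 times as frequent in brain and 1.24 to 1.40 times in the others (exact permutation p = 0.0152). The next base was adenine at 29.7% and 28.7% of brain positions against 23.6% to 27.7% (exact permutation p = 0.0152). Cytosine followed by adenine was at 16.0% and 14.1% of brain positions and at 10.3% to 15.6% in the others, so the groups overlapped. Bone marrow had 15.4% and 15.6%. The pair of bases was not tested. The preceding base was thymine at 12.5% and 12.3%, below the 13.0% to 20.7% of the others (exact permutation p = 0.0606), and cytosine at 57.3% and 55.1%, within the range of 47.4% to 58.2%. Adenine was rare at the position itself in every library, at 5.47% and 4.90% in brain. None of the shares of single bases passed the adjustment over 68 values, in which the ratio to the expected share and the pair of bases were not included. In the AP libraries cytosine was at 17.1% and 17.0% of brain positions and within the range of the other tissues.

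**Figure D5:**
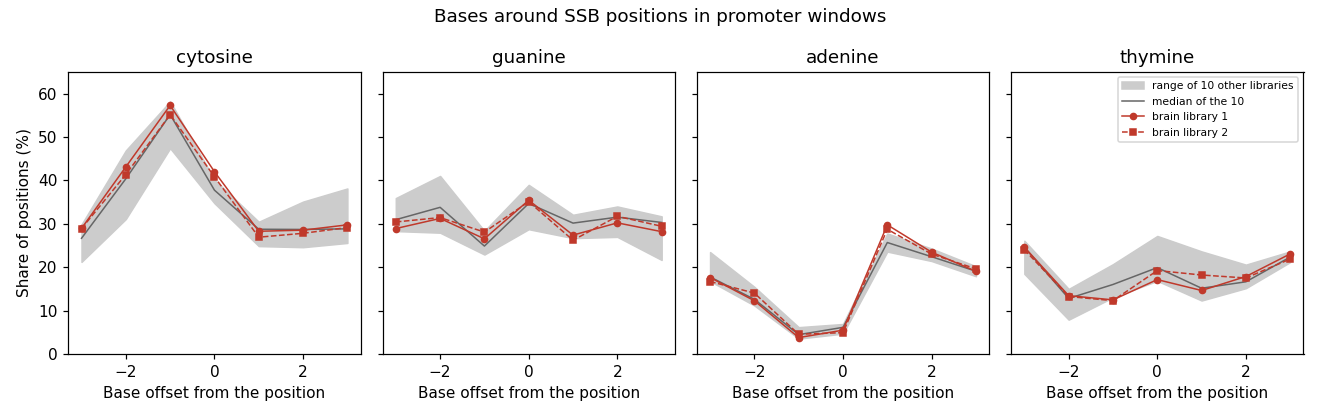
Share of each base at SSB positions in promoter windows (offset 0) and at the 3 bases on either side, read on the strand of the position, for the brain libraries (red) and the range and median of the other 10 libraries (grey). Brain lies above the grey band for cytosine at offset 0 and adenine at offset 1.

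Brain had the lowest shares of positions with a close neighbour. When each library was thinned to 225011 positions, 4.53% and 4.42% of brain positions had another position of the library within 100 bp, against 4.61% to 5.96% in the others (exact permutation p = 0.0606). Liver, with 4.63% ± 0.020 (SD, n = 2), was close to the 4.48% ± 0.083 of brain, and sperm had 5.89% ± 0.033. A count above 1 at a position was found for 0.185% and 0.260% of brain positions and for 0.140% to 1.23% in the others. Between the brain libraries, 620 positions were shared to the nucleotide and strand. Divided by the depths of both libraries, each in units of 1000000 positions, this was 2477, within the 1828 to 2816 of the 20 pairs of a brain library with a library of another tissue. Pairs within the other 5 tissues had 2417 to 4156.

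Lists of genes of brain cell types and of other tissues are described by counts and medians, without a test. Genes called were 0 in all 12 lists (0% of all genes called). Of 26 genes of neurons and synapses, 21 had a ratio above 1, with a median log2 ratio of 0.23 against 0.15 for all genes tested, and 5 had an unadjusted p under 0.05, all higher in brain. Over all genes tested 1473 of 38486 (3.83%) were higher at this p, and 287 of the 3230 genes with a mean of at least 20 positions were. The 5 were Camk2a, the kinase of synaptic plasticity (1.45 and 1.26 LPKM-SSB in brain against 0.520 to 1.39), the glutamate transporter gene Slc17a6 (0.561 and 0.527 against 0.180 to 0.510), the vesicle fusion gene Snap25 (0.561 and 0.712 against 0.284 to 0.773), the vesicular inhibitory amino acid transporter gene Slc32a1 (1.304 and 2.55 against 0 to 2.96) and the NMDA receptor gene Grin2a (0.575 and 0.479 against 0.331 to 0.534). Only Slc17a6 of the 5 had both brain values outside the others. Summed over the list, LPKM-SSB was 0.625 and 0.602 in brain against 0.534 to 0.620 in the others. Rbfox3, Grin2b and Syt1, which have the most positions of the list with Grin2a, had log2 ratios of 0.09, 0.01 and 0.13. At the same unadjusted p, the lists of heart (17 genes tested), liver (16), blood (16) and sperm (12) had 1 gene each, all higher in brain. The 36 long neural genes described next had 3 higher and 2 lower, and the 8 endothelial genes 1 and 1. The oligodendrocyte, astrocyte and SSB repair lists had 1 higher each, and the microglia and immediate early lists 0. Median gene length was 56268 bp in the neuron list, against 1521.5 to 20750 bp in the heart, liver, blood and sperm lists.

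Of 36 long genes of neural adhesion and signalling, 24 had a ratio above 1 and the median log2 ratio was 0.04. Genes with a mean of at least 20 positions, whose median length was 140318 bp, had a median of 0.08. Lsamp (0.316 and 0.400 LPKM-SSB in brain against 0.289 to 0.496), Rbfox1 (0.480 and 0.430 against 0.395 to 0.550), Csmd1 (0.414 and 0.438 against 0.364 to 0.518) and Nrxn3 (0.460 and 0.429 against 0.358 to 0.481) had log2 ratios from -0.03 to 0.12 with SE values of 0.07 to 0.08, and brain lay within the other libraries. Summed over the list, brain had 0.339 and 0.343 against 0.278 to 0.411, with the lowest tissue mean in bone marrow (0.290) and the highest in sperm (0.407).

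The log2 ratios of the 10 longest protein-coding genes had SE values of 0.07 to 0.11 from edgeR, the largest for Dmd. Dmd, the dystrophin gene on chromosome X, had 0.0833 and 0.114 in brain against 0.0730 to 0.132 in the others. Ptprd had 0.283 and 0.295 against 0.190 to 0.364, Cntnap2 0.263 and 0.262 against 0.200 to 0.311, Lrp1b 0.216 and 0.239 against 0.140 to 0.285, and Macrod2 0.378 and 0.385 against 0.274 to 0.487. Dlg2, which encodes a postsynaptic scaffold, had 0.317 and 0.297 against 0.265 to 0.374, and Fhit, at a common fragile site, had 0.372 and 0.400 against 0.323 to 0.445. Lsamp, Csmd1 and Nrxn3 are given above. All 10 overlapped with the other tissues, and their log2 ratios were between -0.03 and 0.19.

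Markers of glia and vessels gave few positions per gene. Of 12 oligodendrocyte genes 7 had a ratio above 1 (median log2 ratio 0.12), of 10 astrocyte genes 6 (0.08), of 10 microglia genes 5 (0.07) and of 8 endothelial genes 4 (0.14). Mbp, the gene of myelin basic protein, had 1.05 and 1.202 LPKM-SSB in brain against 0.555 to 1.32, with 1.25 in bone marrow and 0.570 in sperm on average. Of the other myelin genes with most positions, Cnp, Mobp and Mag had log2 ratios of 0.22, -0.16 and 0.38 with SE values of 0.40, 0.43 and 0.40. The astrocyte glutamate transporter gene Slc1a2 had 0.772 and 0.719 against 0.637 to 0.814, and Slc1a3, Aldh1l1 and Fgfr3 had log2 ratios of 0.21, 0.07 and 0.19. Among microglia genes, P2ry12 had 0.415 and 0.680 and Csf1r 1.41 and 1.13, against 0.427 to 0.980 and 0.256 to 1.40, and Cx3cr1 had a log2 ratio of -0.42. In the endothelial list Vwf had 1.12 and 0.929 against 0.510 to 0.994 and Flt1 0.571 and 0.508 against 0.485 to 0.886, with log2 ratios of 0.46 and -0.35 and edgeR adjusted p-values of 0.864 and 0.939. Tek and Pecam1 had log2 ratios of -0.18 and -0.07.

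Of 15 immediate early genes, which neurons induce within minutes of activity, 9 had a ratio above 1 (median log2 ratio 0.15, equal to that of all genes). Nr4a3 had 0.669 and 0.838 against 0.379 to 1.13 and Npas4 1.16 and 0.757 against 0.559 to 1.33, while Nr4a1 and Nr4a2 had log2 ratios of -0.09 and 0.15. Of 15 genes of SSB repair 12 had a ratio above 1, where 60.2% of all genes tested did. Their median log2 ratio was 0.31, against 0.15 for all genes. The members with most positions did not all share this shift. Their log2 ratios were -0.06 for Tdp1, 0.01 for Top1, 0.02 for Parg and 0.44 for Lig1, with SE values of 0.23 to 0.30. Summed over the list, LPKM-SSB was 0.597 and 0.618 in brain, within the 0.539 to 0.693 of the other libraries. Tdp1, which removes trapped topoisomerase from DNA ends, had 0.509 and 0.735 against 0.461 to 1.08, Top1, the topoisomerase itself, 0.432 and 0.395 against 0.284 to 0.694, Parg, which removes poly(ADP-ribose), 0.343 and 0.373 against 0.230 to 0.509, and the ligase gene Lig1 0.646 and 1.18 against 0.467 to 1.11. The lists of other tissues had median log2 ratios of 0.36 for blood, 0.29 for liver, 0.03 for sperm and 0.01 for heart, on both sides of the 0.15 of all genes. In the blood list Runx1, Ikzf1, Ptprc and Spi1 had log2 ratios of -0.01, -0.28, 0.33 and 0.39. In the liver list Cps1, Apob, Trf and Tat had 0.45, -0.29, 0.67 and -0.07 on the log2 scale. In the sperm list Zpbp, Ldhc, Catsper1 and Odf1 had log2 ratios of 0.47, -0.14, -0.65 and -0.96 with SE values of 0.34 to 0.74. In the heart list Ldb3 had a log2 ratio of 0.10. Tnnt2, the 1 gene of the heart list with an unadjusted p under 0.05, had 3.12 and 0.996 LPKM-SSB in brain against 0.205 to 1.80. Its log2 ratio was 0.95 ± 0.36 (SE, edgeR adjusted p = 0.939). Ryr2 and Ttn of the heart list had 0.430 and 0.441 and 0.646 and 0.793 in brain, within the 0.417 to 0.570 and 0.603 to 0.776 of the others for Ryr2 and with 1 brain library above the others for Ttn. Summed LPKM-SSB in brain overlapped with the other libraries in all 12 lists.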

How the data were processed

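Per the labels and methods of the study, genomic DNA of 6 tissues of 24-month-old mice was profiled with SSiNGLe (SSBs) and SSiNGLe-AP (abasic sites). The authors deposited, for each library, 1-nucleotide positions, each with its strand and an unnormalized count, made with their own code (genome build mm10, GRCm38). The strand field was taken as that of the break, which the sources used here do not state. Each position was counted once.

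Positions were counted in 49943 whole RefSeq genes of GRCm38 (27025 with a known strand) and in windows. Exons were not counted. Features above 0 in 20% or more of the libraries were tested with edgeR 4.0.16 in R 4.3.3 (quasi-likelihood, TMM, brain minus the mean of 5 tissues, Benjamini-Hochberg adjustment, threshold 0.05), checked on simulated data. Single values were tested with a two-sided exact permutation of 2 against 10 libraries and adjusted over 68 values. DESeq2 1.42.0 and limma 3.58.1 were alternatives, with Python 3.11.15 for the rest. A position covered by several genes takes the length class of the longest. Windows of 1 Mb and 5 Mb were chosen after seeing the data. Members and lists were chosen with earlier results of these data known.

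Named were the 5 genes and windows of smallest p in each direction, the 4 members of each list with most positions, list members with an unadjusted p under 0.05 that were chosen after their values were seen, the 10 longest protein-coding genes, and the richest windows. A few items that this rule selects are not reported here. Per the labels all tissues came from 2 mice, without saying which mouse gave which library, so libraries of different tissues may share a mouse. The permutation treats the 10 other libraries as exchangeable although they are pairs from 5 tissues, and p-values measure only the spread between these libraries. Replicate numbers were not used to pair the samples in the main fit. Differences between replicates 1 and 2 correlated between tissues with r from -0.188 to 0.142 over 512 windows of 5 Mb (15 pairs of tissues, 2 of them above 0.1). These correlations cannot tell whether libraries with the same number share a mouse, because the differences also hold counting error.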

Additional observations from a re-analysis of the deposited data

How the results depend on the processing

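Genes remained at 0 calls under every setting tried (no TMM, DESeq2, other filters, summed counts, equal depth, autosomes, protein-coding genes, without sperm or bone marrow, the replicate block, and each library left out). For 100 kb windows the summed counts called 1 window lower (chromosome 7 from 104400001 to 104500000), leaving out sperm replicate 1 called 1 higher (the window over Fah, range over libraries left out 0 to 1), and all other settings called 0, while 1 Mb windows gave 7 higher and 2 lower and 5 Mb windows 28 and 44. For 5 Mb windows, DESeq2 called 1 and 2, limma 14 higher and 32 lower, and equal depth 5 and 5. The ranges over libraries left out were 2 to 38 higher and 4 to 69 lower, lowest without brain replicate 2 (2 and 4) and highest without bone marrow replicate 2 (38 and 69). With the replicate block the 5 Mb calls were 24 and 47, and the block changed no other call. The cause of these changes was not tested.

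On chromosome 14 the difference of 0.12 percentage points lost its unadjusted call without sperm (0.121, exact permutation p = 0.0667) and in 7 of the settings without a single library (range 0.0999 to 0.127). On chromosome 7 it lost it in 3 such settings (range -0.275 to -0.218). Without bone marrow, the difference in the sense share passed unadjusted for all genes (-1.48), genes of 10 to 50 kb (-1.47), 50 to 100 kb (-1.65), 100 to 500 kb (-1.49) and over 500 kb (-1.59), and for 10 to 50 kb also with summed counts (-1.26) and on autosomes (-1.27). Bone marrow had the sense share over all genes nearest to that of brain, so the calls without it do not set brain apart from all other tissues. Without 1 library the sense difference ranged from -1.36 to -1.02 for all genes and from -1.41 to -1.13 for genes of 10 to 50 kb. The difference in density at gene ends ranged from -0.0169 to 0.0114. Depth limits single genes, with a median of 2 and 4 positions in the brain libraries, and no genome sequence was used, so base composition of windows was not compared.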
